A study of Mus musculus with 23 samples.

Results

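Left ventricles of Efnb1 knockout mice were compared with those of wild-type mice at 20 days after birth. The 12 arrays were those whose labels name this age, 6 WT_P20 and 6 Efnb1cKO_P20, of 23 arrays in the series. Each array held total RNA of 1 left ventricle from 1 male mouse on a mixed S129/S4 × C57BL/6 background, without any treatment. WT is wild type, and Efnb1cKO marks mice in which Efnb1 was removed in heart muscle cells only. The labels name neither the Cre line nor the deleted part of Efnb1, and do not give the hour at which hearts were taken. The other 11 arrays, from mice of 60 days (P60), 5 WT and 6 Efnb1cKO, entered the fit to estimate the spread and were used for comparison of the ages.

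Ephrin-B1, encoded by the X-linked gene Efnb1, spans the cell membrane and binds Eph receptors on neighbouring cells, and it can also signal into the cell that carries it. In heart muscle cells it sits at the lateral membrane, the long side of the rod-shaped cell, and not at the intercalated discs that join cells end to end. In mice the weeks after birth are the period in which these cells stop dividing, take on their rod shape, build transverse tubules and replace fetal contractile proteins, such as the slow myosin heavy chain Myh7, by adult ones.

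Levels are log2 intensities after scaling each array to its 75th percentile of processed signal, and a difference is Efnb1cKO minus WT on that scale. Between 59.1% and 62.5% of probes were well above background on the P20 arrays, and no spot was saturated. Heart muscle markers were bright on all 12 arrays. Myl2, the ventricular myosin light chain, lay between 17.78 and 18.05, and Tnni3, the cardiac troponin I of both chambers, between 17.55 and 17.89. Their differences between genotypes were 0.03 for each, with adjusted p of 1 in limma.

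Before any comparison, 3 arrays stood apart from the rest, WT 5, WT 6 and Efnb1cKO 6. On the first principal component of the 12 arrays, which held 29.1% of the variance, they scored -34.13, -32.07 and -27.61, while the other 9 arrays scored 4.29 to 16.44. The same 3 had the highest Arntl, the activator of the circadian clock, and the lowest Dbp, a transcription factor whose messenger RNA cycles with it. Dbp (0.051), Arntl (-0.048), Bdh1 (0.058) and the cell cycle gene Top2a (-0.043) had among the largest loadings on this component. That such genes split the arrays in this way thus follows from how the 3 were found. Results below are given with all 12 arrays, and without these 3 where the call depends on them.

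Few probes distinguished the genotypes. Of 35718 probes tested in limma, 9 (0.0252%) passed an adjusted p of 0.05, of which 8 (0.0224%) were higher and 1 (0.0028%) was lower in Efnb1cKO. At an unadjusted p below 0.05 there were 1627 probes (4.56%), 2.48% higher and 2.08% lower, against 1786 expected by chance alone. The values of the 6 WT and 6 Efnb1cKO arrays did not overlap for 80 probes (0.224%). A random split of the arrays separates a probe's values fully with a probability of 0.00216, so this share is near that of chance. The median size of a difference was 0.057 over all probes, and 45 probes differed by more than 1 in either direction. At P60 the same fit called 214 probes (0.599%). The plot of all probes shows Myh7, Ndnf and 1810058I24Rik apart from the rest.

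**Figure D1:**
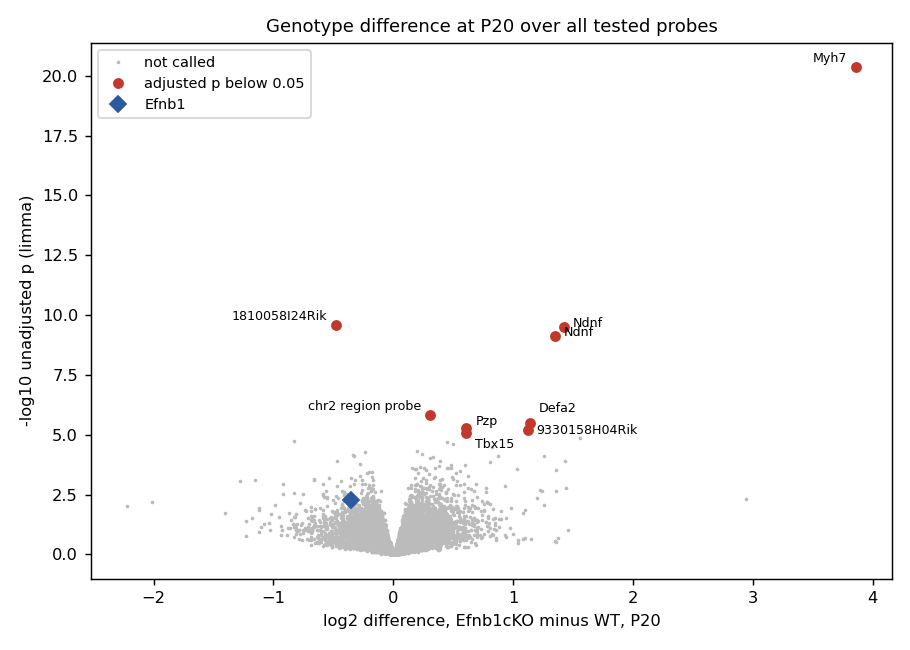
Difference between Efnb1cKO and WT at P20 (x axis, log2) against the negative log10 of the unadjusted limma p (y axis) for 35718 probes, with the 9 called probes in red, the others in grey and Efnb1 as a blue diamond. Myh7 stands alone at a difference of 3.86, Defa2 was below background on all 12 arrays, and Efnb1 lies at -0.35 within the mass of probes that were not called.

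The probes on which the results turn are shown by the first 30 of their 60 bases, as the scanner files give them, with positions on the mouse build mm9. They are printed because probes of a single gene gave different answers for Myh7 and 1810058I24Rik, so that the value belongs to the stretch of RNA the probe reads.
Efnb1 A_51_P388478, chrX:96343505-96343564, plus strand: ttttggaccctcatgagacaatgctgttcc
Myh7 A_55_P2093232, chr14:55589581-55589640, minus strand: atgaggagtagctcttgtgctacccagctc
Myh7 A_65_P07389, chr14:55600186-55600245, minus strand: atccccacaaagatagtgtccgtcatccta
Ndnf A_52_P442710, chr6:65655964-65656023, plus strand: atgacgtgtgttctgcttaccttaagggaa
Ndnf A_52_P956261, chr6:65662191-65662250, plus strand: atgctaccccaataaaattggttggtactg
1810058I24Rik A_52_P477649, chr6:35211571-35211630, plus strand: agtgataacaggagcttgctagacaaacta
1810058I24Rik A_51_P416613, chr6:35213165-35213224, plus strand: acaatgaatgccttttttgaagaccacagg
Exons, introns and untranslated regions at these positions were not used here.

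The targeted gene itself was read by 1 probe. In WT the Efnb1 level was 11.65, 11.73, 11.79, 11.61, 12.34 and 12.35 in arrays 1 to 6. In Efnb1cKO it was 11.47, 11.52, 11.37, 11.66, 11.58 and 11.80. The groups overlapped through Efnb1cKO 4 and 6, and the highest WT values were those of WT 5 and 6, both among the 3 arrays that stood apart. The difference was -0.35 (SE 0.111), which missed the threshold in limma (adjusted p = 0.77). An exact two-sided permutation test of the 12 arrays gave p = 0.0368, where 0.00216 is the smallest p that 924 splits allow.

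Within the 3 slides, each of which held 2 WT and 2 Efnb1cKO arrays of this age, the Efnb1 difference was -0.14, -0.48 and -0.42. Permuting only within slides gave an exact p of 0.0648, and pairing arrays by replicate number an exact p of 0.0625. Without the 3 arrays that stood apart the difference was -0.18 (exact permutation p = 0.0397). In a whole ventricle, loss of a transcript from one cell type and a different share of that cell type cannot be told apart, and other cells of the heart keep Efnb1. Whether the probe lies inside the deleted part was not tested, since no source used here names that part.

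Among the partners of Efnb1, no gene passed the threshold. Of 19 tested Eph receptors and ephrins, 1 was higher (Ephb6) and 2 were lower (Efnb1 and Ephb4) at an unadjusted p below 0.05, and over all 16863 genes, each through its brightest probe, 842 (4.99%) were at that limit, 3.05% higher and 1.94% lower. The adjusted threshold was passed by 6 of these genes (0.0356%). The list's median difference was -0.01, against 0.001 over all these genes. Ephb6, a receptor without kinase activity, had a mean of 7.20 ± 0.21 (SD, n = 6) in WT and 7.57 ± 0.40 in Efnb1cKO (adjusted p = 0.94 in limma). Ephb4 had a mean of 11.19 ± 0.07 in WT and 11.05 ± 0.15 in Efnb1cKO. Efnb2 and Efnb3, the other B-type ephrins, differed by -0.01 and -0.17, both with an adjusted p of 1. Of 26 signalling partners of ephrin-B, 0 were higher and 1 was lower at the unadjusted limit. That gene was Fyn, a Src-family kinase, with a difference of -0.12 (SE 0.0452, adjusted p = 0.93).

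The largest difference was at a probe of Myh7, the slow myosin heavy chain of fetal and stressed ventricle. Probe A_55_P2093232 read 11.15, 11.18, 10.97, 11.13, 10.67 and 10.98 in WT, and 14.92, 15.07, 14.77, 14.93, 14.72 and 14.80 in Efnb1cKO. The groups were far apart, and no array lay between them. The difference of 3.86 (SE 0.0996) was a 14.5-fold rise (adjusted p = 1.5e-16 in limma), with 3.88, 3.97 and 3.72 in the 3 slides. Without the 3 arrays that stood apart it was 3.78 (adjusted p = 1.9e-13).

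The other Myh7 probe, A_65_P07389, whose first base lies 10605 bases further along chromosome 14, did not show this. It read 9.74, 9.48, 9.93, 9.64, 9.55 and 9.23 in WT and 9.56, 9.42, 10.03, 9.71, 9.73 and 9.34 in Efnb1cKO, so that the groups overlapped throughout. Its difference was 0.03 (SE 0.113, adjusted p = 1). The sign of this small difference turned with some settings, to -0.02 with Arntl minus Dbp as a covariate. Both probes lie on the minus strand, so the called probe is the one nearer to the end of the gene. The next gene in that direction is Myh6, the fast adult heavy chain. Its probes, 5449 and 28807 bases away from the called Myh7 probe, differed by 0.01 (SE 0.0576) and 0.05 (SE 0.0649), both with an adjusted p of 1. Which RNA carries the extra signal at the called probe was not tested. Cre lines for heart muscle are often driven by a Myh6 promoter fragment, which can include the end of Myh7, and the labels do not name the Cre line. Myh7 RNA and transgene sequence therefore cannot be told apart at this probe, and the rise is given for the probe and not for Myh7 as a gene.

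Within 2 Mb of the called Myh7 probe, 127 other probes of 96 genes were tested, and 0 passed the threshold. At an unadjusted p below 0.05, 3 were higher and 3 were lower. At P60 the called Myh7 probe was higher by 2.35 (adjusted p = 1.1e-11), and the interaction of genotype and age was -1.5 (SE 0.144, adjusted p = 1.6e-05). On the log2 scale, as a ratio, the excess was thus larger at P20 than at P60. The means at P60 were 13.63 in WT and 15.98 in Efnb1cKO, both above those at P20.

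**Figure D2:**
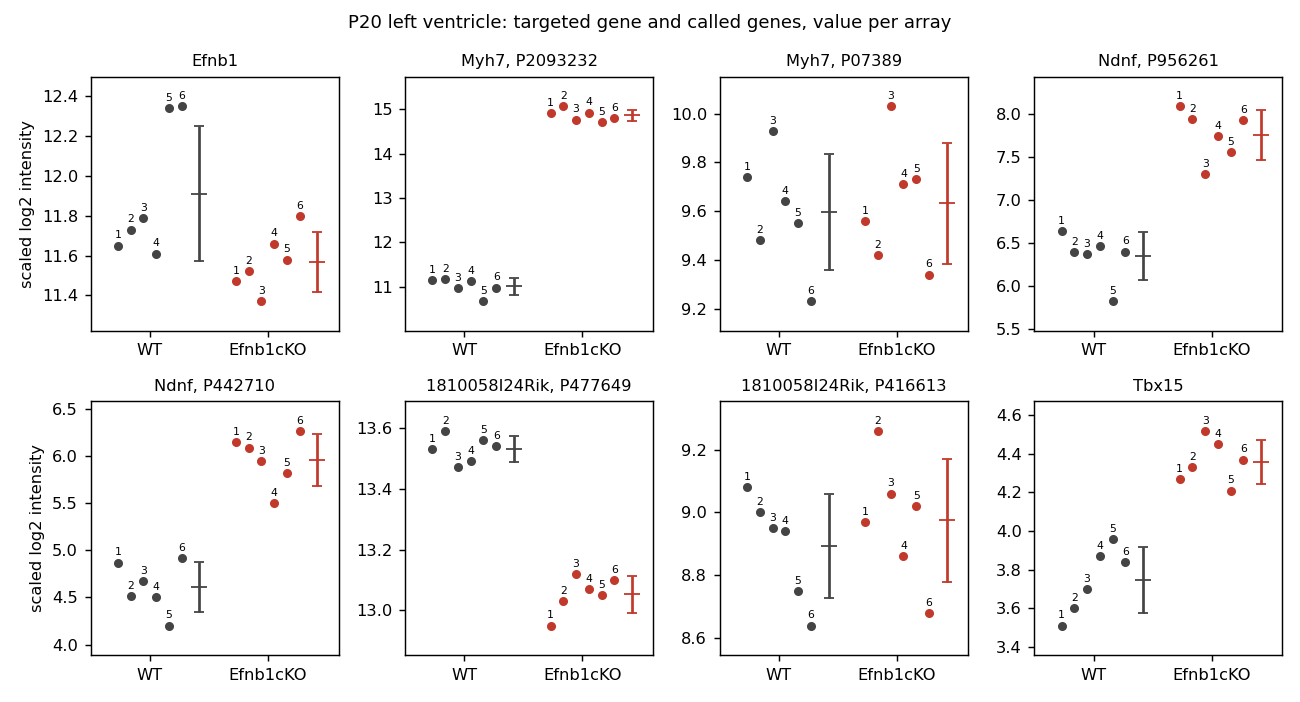
Scaled log2 intensity (y axis) of each P20 array for Efnb1 and for 7 probes of called genes, WT in grey and Efnb1cKO in red, with the replicate number over each point and the mean and SD of 6 arrays as bars. The groups are apart for Tbx15, both Ndnf probes, one Myh7 probe and one 1810058I24Rik probe, and they overlap for Efnb1 and for the other probe of Myh7 and of 1810058I24Rik.

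Ndnf was the gene called through both of its probes. It encodes a secreted factor first described in neurons, with reported effects on endothelial cells. Probe A_52_P956261 read 6.64, 6.39, 6.37, 6.46, 5.82 and 6.40 in WT and 8.09, 7.94, 7.30, 7.74, 7.56 and 7.93 in Efnb1cKO. The lowest Efnb1cKO value was above the highest WT value. The difference was 1.42 (SE 0.128), a 2.67-fold rise (adjusted p = 3.6e-06 in limma). Probe A_52_P442710 of Ndnf rose by 1.35 (SE 0.129, 2.55-fold, adjusted p = 6.7e-06), from 4.2 to 4.92 in WT to 5.5 to 6.27 in Efnb1cKO. In the 3 slides the first Ndnf probe differed by 1.5, 1.65 and 1.1.

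The Ndnf rise did not depend on the arrays that stood apart, without which both probes of Ndnf differed by 1.26 (adjusted p = 0.00014 for each). With normexp background correction, which compresses dim values, the Ndnf differences were 1.01 and 0.60, and both were still called. At P60 the Ndnf differences were 1.5 and 1.53, and the interaction was 0.08 and 0.18, each with an adjusted p of 1. Around Ndnf, 28 other probes of 23 genes within 2 Mb were tested, 0 passed the threshold and 0 had an unadjusted p below 0.05. A similar window around Efnb1 held 30 probes of 20 genes, of which 0 passed the threshold and 1 was lower at the unadjusted limit.

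The single fall was at a probe of 1810058I24Rik, a transcript named only by its clone. Probe A_52_P477649 read 13.53, 13.59, 13.47, 13.49, 13.56 and 13.54 in WT and 12.95, 13.03, 13.12, 13.07, 13.05 and 13.10 in Efnb1cKO. The arrays within a group were close, with SDs of 0.04 and 0.06, and the groups did not overlap. The level fell by 0.48 on the log2 scale (SE 0.0426, adjusted p = 3.6e-06 in limma), and at P60 it fell by 0.42. The other 1810058I24Rik probe, A_51_P416613, differed by 0.08 (SE 0.098, adjusted p = 1) with overlapping groups. Without the 3 arrays that stood apart the called 1810058I24Rik probe differed by -0.48 (adjusted p = 0.00021).

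The other 5 calls were smaller or dimmer, and none passed without the 3 arrays that stood apart, where adjusted p lay between 0.064 and 0.17. With normexp correction Tbx15 differed by 0.15, Pzp by 0.29 and 9330158H04Rik by 0.26, and all missed the threshold (adjusted p = 1, 0.24 and 0.42 in limma). Tbx15, a T-box transcription factor of the developing skeleton and muscle, read 3.51 to 3.96 in WT and 4.21 to 4.52 in Efnb1cKO. Its difference was 0.61 (SE 0.105, adjusted p = 0.034 in limma), and 4 of the 6 WT arrays were well above background. Pzp, a protease inhibitor of plasma, read 4.79 to 5.32 in WT and 5.47 to 6.00 in Efnb1cKO at probe A_66_P114065 (0.61, SE 0.101, adjusted p = 0.027). The other Pzp probe differed by 0.32 (adjusted p = 1), and 4 of the 12 arrays were above background there, 1 WT and 3 Efnb1cKO.

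The non-coding transcript 9330158H04Rik read 2.71 to 3.58 in WT, with 2 of 6 arrays above background, and 3.98 to 4.45 in Efnb1cKO at probe A_66_P125334 (1.12, SE 0.189, adjusted p = 0.029). Its other probe differed by 0.52 (adjusted p = 0.48), and the groups overlapped through Efnb1cKO 6. A probe for a region of chromosome 2 that the array design names by position only (chr2:153167516-153167575, minus strand) read 7.29 to 7.48 in WT and 7.65 to 7.80 in Efnb1cKO (0.31, SE 0.0477, adjusted p = 0.011). At P60 the same probe was higher by 0.52 (adjusted p = 2.4e-06).

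Defa2, an alpha-defensin of intestinal Paneth cells, stayed below the background limit on all 12 arrays of this age, so no fold is given. Its probe read 0.97 to 1.32 in WT and 2.0 to 2.82 in Efnb1cKO (adjusted p = 0.019). At P60 the Defa2 probe was above background on 6 of 6 Efnb1cKO arrays and 0 WT arrays, and it was tested only because of those 6. With normexp correction the Defa2 difference at P20 was 0.14 (adjusted p = 1). Members of this family are near-identical, and the probe may not tell them apart.

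Of the 9 called probes, 5 lie on chromosome 6, which holds 5.14% of the tested probes with a position. They are the pair for Ndnf and 1 each for Pzp, 1810058I24Rik and 9330158H04Rik. Around 1810058I24Rik, in a window of 2 Mb to either side chosen after its values were seen, 44 other probes of 27 genes were tested. At an unadjusted p below 0.05, 10 of these probes were higher and 0 were lower, against 2.48% and 2.08% of all probes. As the window was chosen after the values were seen, this count is a description and not a test. The 10 include both 9330158H04Rik probes, of which 1 is among the 9 calls. They also include 1 probe of Dgki that was above background on 0 of the 12 arrays. So 9 remain with a reading above background on any P20 array, and 6 with all 12. Of these 9, AK082250 was above background on 0 WT arrays at either age and on 5 Efnb1cKO arrays at each. It was thus tested only through the group where it is high. At P60 the fit called 4 probes of the window, of which 3 (Dgki, AK082250 and an unnamed region) were above background on 0 WT arrays of that age, so only Nup205 was measured in both groups. Nup205, a nuclear pore subunit, differed by 0.50 at 1 of its 3 probes (SE 0.0927, adjusted p = 0.067), and by -0.01 and -0.04 at the other two. Chrm2, the muscarinic receptor that slows the heart, differed by 0.48 (SE 0.107, adjusted p = 0.22), with a WT mean of 9.30 and an Efnb1cKO mean of 9.78.

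Below the threshold, 16 further named genes were picked. They had the largest differences among probes above background on all 12 arrays with groups that did not overlap. The share of probes without overlap was near that of chance, so this only describes how they were chosen. None passed in limma, with adjusted p between 0.067 and 1. Gm, Rik and LOC names did not count as named genes, so Gm11967 (0.45) and 5430419D17Rik (-0.41) are not among them. On the higher side stood Igfbpl1 (0.54), Nup205 (0.50), Marveld2 (0.48), Slc13a4 (0.43), Thrsp (0.39), Scd2 (0.35), Ptk2b (0.31) and Sv2a (0.30). Thrsp and Scd2 both belong to fatty acid synthesis, Thrsp as a regulator and Scd2 as a desaturase. Thrsp read 10.33 to 10.92 in WT and 10.92 to 11.29 in Efnb1cKO (adjusted p = 0.18). Scd2 read 11.12 to 11.40 in WT and 11.47 to 11.75 in Efnb1cKO (adjusted p = 0.24). Ptk2b, a calcium-responsive tyrosine kinase, read 9.14 to 9.31 in WT and 9.37 to 9.63 in Efnb1cKO (adjusted p = 0.14), and at P60 the Ptk2b difference was 0.47 (adjusted p = 0.00063).

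On the lower side stood Myl1 (-0.50), AW011738 (-0.43), Frk (-0.42), Dcakd (-0.36), Wbscr17 (-0.30), Pfkfb1 (-0.28), Slc16a4 (-0.28) and Amy1 (-0.25). Myl1, a light chain of fast skeletal muscle, read 5.59 to 5.84 in WT and 4.69 to 5.56 in Efnb1cKO (adjusted p = 0.77). Dcakd read 9.63 to 9.92 in WT and 9.31 to 9.58 in Efnb1cKO (adjusted p = 0.50), and at P60 it was lower by 0.72 on the log2 scale (adjusted p = 0.00052). Slc16a4, a monocarboxylate transporter family member, read 5.30 to 5.55 in WT and 5.04 to 5.22 in Efnb1cKO (adjusted p = 0.21).

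Of 29 sarcomere genes, 1 passed the threshold, Myh7 through the single probe already described. At the unadjusted limit 2 were higher and 1 was lower, against 3.05% and 1.94% of all 16863 genes, and the median difference was 0.03. Tnni1, the slow troponin I of the fetal heart, had a mean of 7.63 ± 0.22 (SD, n = 6) in WT and 8.04 ± 0.21 in Efnb1cKO (0.41, SE 0.102, adjusted p = 0.40 in limma). Of 21 genes of the fetal and stress programme, 1 passed, Myh7 through the same single probe while its other probe differed by 0.03. At the unadjusted limit 4, that probe included, were higher and 0 lower, against the same 3.05% and 1.94%, with a median difference of 0.07. Nppa, the atrial natriuretic peptide, read 14.45 to 16.08 in WT and 15.16 to 17.19 in Efnb1cKO (0.76, SE 0.282, adjusted p = 0.93). Nppb, the other natriuretic peptide of this programme, differed by -0.21 (SE 0.234, adjusted p = 1).

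Skeletal muscle genes had 4 higher and 1 lower of 17 tested at the unadjusted limit, against 3.05% and 1.94% of all 16863 genes. None passed the threshold, and the median of 0.02 turned to -0.08 without the 3 arrays that stood apart. Mylpf, the fast regulatory light chain, came closest. It read 5.87, 6.15, 6.34, 5.89, 5.80 and 5.87 in WT and 7.24, 7.29, 6.80, 6.51, 6.70 and 6.28 in Efnb1cKO, where Efnb1cKO 6 fell below WT 3. The Mylpf difference was 0.82 (SE 0.156, adjusted p = 0.087), and 0.69 at P60 (adjusted p = 0.057). Tnnt3, fast troponin T, had means of 6.37 ± 0.14 and 6.75 ± 0.19 (adjusted p = 0.74), and at P60 its difference of 0.68 passed the threshold (adjusted p = 0.0083), while the interaction did not (adjusted p = 1). The list mean over the 17 genes was 9.10 to 9.51 in WT and 9.25 to 9.57 in Efnb1cKO.

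No gene of the membrane compartment at which ephrin-B1 sits passed the threshold. Of 29 genes of the lateral membrane, costameres and transverse tubules, 0 were higher and 4 were lower at the unadjusted limit. The median difference was -0.05, and over all 16863 genes 3.05% were higher and 1.94% lower at that limit. Amph, amphiphysin, which bends membranes, read 6.96, 6.79, 6.85, 6.98, 6.99 and 6.91 in WT and 6.42, 6.48, 6.67, 6.41, 6.43 and 6.95 in Efnb1cKO. All but Efnb1cKO 6 lay under every WT array. The Amph difference was -0.35 (SE 0.0876, adjusted p = 0.39 in limma), and missed the threshold. Without Efnb1cKO 6 alone it was -0.43 (adjusted p = 0.031), and without all 3 arrays that stood apart -0.41 (adjusted p = 0.17). With single arrays left out the adjusted p for Amph in limma ran from 0.031 to 0.87, and under all other settings from 0.12 to 0.77. At P60 Amph was lower by 1.14 on the log2 scale, and the interaction of -0.79 (SE 0.127) passed the threshold (adjusted p = 0.011), so the gap was wider at P60.

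Dmd, dystrophin, which ties the cytoskeleton to that membrane, had means of 11.11 ± 0.06 in WT and 10.97 ± 0.10 in Efnb1cKO (-0.15, SE 0.0509, adjusted p = 0.88). At P60 Dmd was lower by 0.54 on the log2 scale (adjusted p = 3.1e-06), with an interaction that missed the threshold (adjusted p = 0.057). Of 21 intercalated disc genes, 1 was higher and 1 lower at the unadjusted limit, against 3.05% and 1.94% of all genes, with a median difference of -0.01. Ctnna3, alpha-T-catenin, differed by -0.15 (adjusted p = 1). At P60 Ctnna3 was lower by 0.61 on the log2 scale (adjusted p = 2.5e-05), and the interaction again missed the threshold (adjusted p = 0.16). Of 29 genes of calcium handling and ion channels, 1 was higher and 1 was lower, against the same shares of all genes. The lower one was Cacna1c, the pore of the L-type calcium channel, with means of 13.01 ± 0.18 and 12.74 ± 0.15 (adjusted p = 0.58).

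Metabolic genes gave no call. For oxidative phosphorylation, 0 of 30 genes passed even the unadjusted limit, the median difference was 0.03 and single differences ran from -0.04 to 0.06. Fatty acid oxidation (27 genes) and glycolysis (20 genes) likewise had 0 genes at the unadjusted limit, with medians of -0.02 and 0.03.

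No gene of the growth and matrix lists passed the threshold, and the means of the cell cycle, matrix and imprinted growth lists were highest in the arrays that stood apart. Of all 26 lists, these 3 and the endothelial markers had higher means in WT 5, WT 6 and Efnb1cKO 6 than in any other array, and 5 (clock, skeletal muscle, calcium handling and ion channels, glycolysis, oxidative phosphorylation) had lower ones. The endothelial mean was 11.98 to 12.08 in the 3 arrays and 11.64 to 11.77 in the other 9. Of 30 cell cycle genes, 26 had a lower mean in Efnb1cKO, with a median of -0.17. At the unadjusted limit 2 were lower and 0 higher, against 1.94% and 3.05% of all 16863 genes, and 0 passed the adjusted one. The mean over the cell cycle list was 7.57 and 7.70 in WT 5 and 6 and 7.84 in Efnb1cKO 6, and 6.75 to 7.12 in the other 9 arrays. WT thus held 2 of the 3 high arrays. Bub1, a mitotic checkpoint kinase, read 4.66 and 4.57 in WT 5 and 6 and 4.91 in Efnb1cKO 6, while the rest read 1.37 to 3.46. Its probe was above background on 2 WT and 1 Efnb1cKO arrays, so the low readings have no reliable level. Of 30 extracellular matrix genes, 27 had a lower mean, 2 at the unadjusted limit, with a median of -0.14. The matrix list mean was 11.88, 12.01 and 11.91 in the same 3 arrays and 11.49 to 11.81 in the other 9. Imprinted growth genes (18 tested) had 0 at the unadjusted limit and a median of -0.04. Without the 3 arrays the medians were -0.11 for the cell cycle and -0.09 for the matrix. With single arrays left out they ran from -0.27 to -0.07 for the cell cycle and from -0.2 to -0.08 for the matrix. Immediate early genes (18 tested), markers of recent stimulation, had 0 at the unadjusted limit and a median of -0.06.

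**Figure D3:**
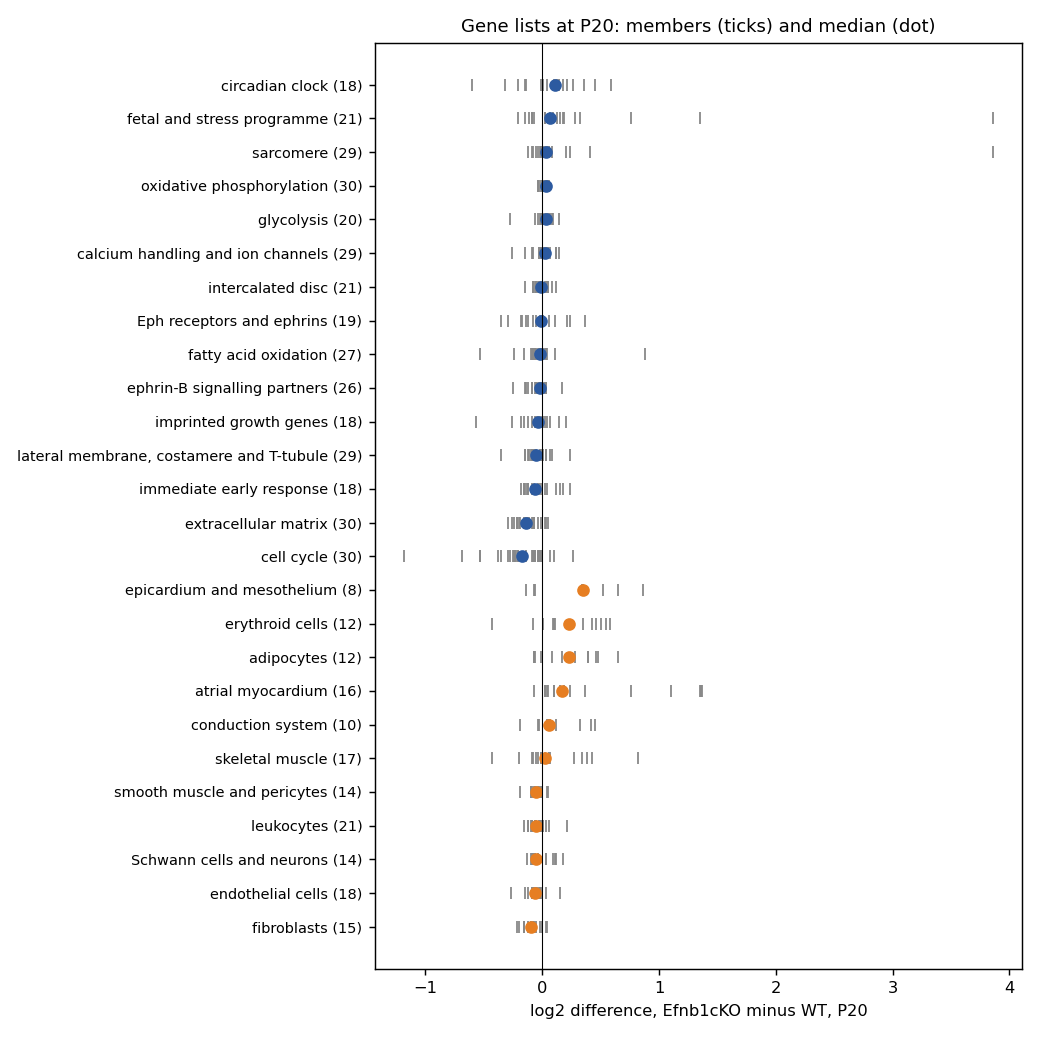
Difference between Efnb1cKO and WT at P20 (x axis, log2) for the members of 26 gene lists (ticks) and their medians (blue for processes, orange for cell type markers), with the number of genes tested in brackets. Medians lie between -0.17 for the cell cycle and 0.35 for the epicardium, which was -0.09 without Efnb1cKO 1, and the Myh7 probe at 3.86 is the outlying tick of the sarcomere and of the fetal and stress list.

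Markers of other cells in the tissue were counted in the same way. No marker passed the threshold in any of 11 cell type lists. Fibroblast genes had 0 higher and 3 lower of 15 at the unadjusted limit, against 3.05% and 1.94% of all 16863 genes. Their median was -0.10, and the list mean was 12.13 to 12.35 in WT and 12.09 to 12.28 in Efnb1cKO. Col1a2, the collagen I chain, had means of 14.82 ± 0.23 and 14.60 ± 0.13 (adjusted p = 1). Endothelial genes had 1 higher and 0 lower of 18, with a median of -0.06. Smooth muscle and pericyte genes and leukocyte genes had 0 at the unadjusted limit of 14 and 21 tested, with medians of -0.05 each. Of 14 markers of Schwann cells and neurons 1 was higher, with a median of -0.05. Of 10 conduction system markers 1 was higher and 1 lower, with a median of 0.06.

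The erythroid median was 0.23, which was 0.38 without the 3 arrays that stood apart and 0.13 to 0.44 with single arrays left out. At the unadjusted limit 2 of 12 erythroid genes were higher, against 3.05% of all 16863 genes. They were the globins Hbb-b1 (0.50, SE 0.200, adjusted p = 0.99) and Hbb-b2 (0.46, SE 0.188, adjusted p = 1), whose probes may read each other's transcript. Epicardial markers had 0 of 8 at the unadjusted limit and a median of 0.35, which turned to -0.09 without Efnb1cKO 1. Their list mean was 7.95 in Efnb1cKO 1 and 5.58 to 6.46 in the other 11 arrays. In that array Krt8, a keratin of the epicardium, read 6.76, against 3.48 to 4.89 elsewhere. Of the 8 differences, 5 were positive (0.34 to 0.86) and 3 negative (-0.14 to -0.06). Adipocyte genes had 0 of 12 at the unadjusted limit and a median of 0.23, which was 0.63 without the 3 arrays, -0.02 without Efnb1cKO 1, -0.01 without WT 2 and -0.06 with Arntl minus Dbp and Myl7 as covariates. Its sign thus turned with single arrays and with the setting. Their list mean ran from 7.34 to 9.42 in WT and from 7.44 to 9.68 in Efnb1cKO.

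Clock genes spread widely within each group. The median SD within groups was 0.161 over 13874 named genes above background on all 12 arrays, and 0.323 over the clock list. Dbp read 14.61, 14.40, 14.60, 14.80, 12.51 and 12.23 in WT and 14.44, 14.63, 14.52, 14.92, 14.83 and 12.52 in Efnb1cKO. It was about alike in 9 arrays and low in WT 5, WT 6 and Efnb1cKO 6. Arntl, whose protein drives Dbp, read 5.79, 6.17, 5.89, 5.59, 7.75 and 8.07 in WT and 6.05, 5.70, 5.61, 5.11, 5.56 and 7.62 in Efnb1cKO. It was high in the same 3 arrays.

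The genotype differences were 0.45 (SE 0.625) for Dbp and -0.60 (SE 0.555) for Arntl, both with an adjusted p of 1 in limma. Exact two-sided permutation tests gave p = 0.359 for Dbp and p = 0.234 for Arntl. Without the 3 arrays these differences were 0.07 for Dbp and -0.26 for Arntl. Of 18 clock genes, 0 were at the unadjusted limit, and the list's median was 0.11 with all arrays and 0 without the 3. Clock itself read 10.50 in Efnb1cKO 6 and 9.81 to 9.98 in the other Efnb1cKO arrays. Nr1d1, a repressor in the clock's second loop, had a difference of 0.13 (SE 0.296). Bdh1, a ketone body enzyme that is no clock gene, had the same split, with 5.44, 4.79 and 5.78 in the 3 arrays and 7.46 to 8.29 in the rest. It is among the genes of largest loading on the component that set these arrays apart, so its split is no separate observation.

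**Figure D4:**
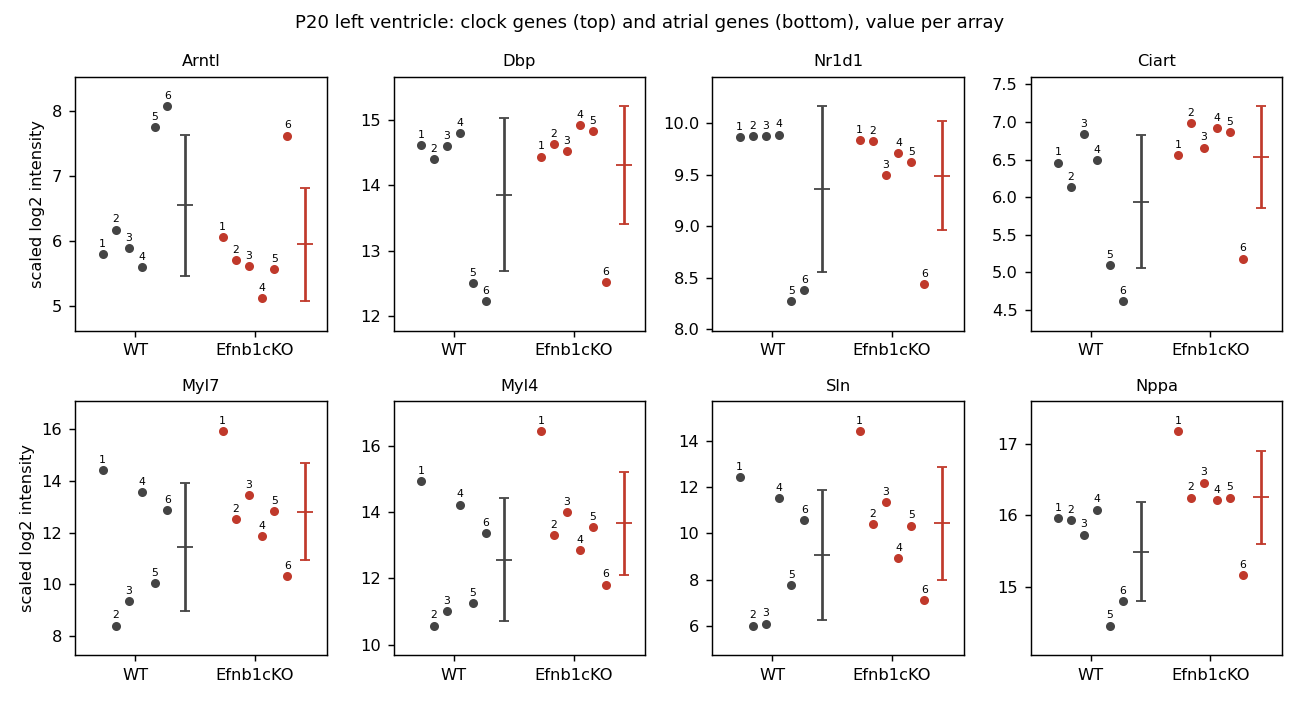
Scaled log2 intensity (y axis) of each P20 array for 4 clock genes (top) and 4 atrial genes (bottom), WT in grey and Efnb1cKO in red, with replicate numbers and the mean and SD of 6 arrays. WT 5, WT 6 and Efnb1cKO 6 have high Arntl and low Dbp, while Myl7 ranges from 8.41 to 15.93 with a different order of arrays.

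Some atrial genes spread more widely still, with another order of arrays. Sln (2.63) and Myl7 (2.19) had the largest SDs within groups of the 13874 genes. The median SD was 0.462 over the atrial list, with members from 0.10 (Nr2f2) to 2.63 (Sln). This median is not like for like with the other medians. It includes Mybphl (2.54) and Fgf12 (1.78), which were not above background on all 12 arrays. Myl7, the atrial myosin light chain, read 14.40, 8.41, 9.36, 13.57, 10.05 and 12.86 in WT and 15.93, 12.51, 13.44, 11.85, 12.83 and 10.31 in Efnb1cKO. WT 2 and 3 were lowest and Efnb1cKO 1 was highest, and the groups overlapped widely. The difference was 1.37 (SE 1.05, adjusted p = 1 in limma), with 2.42, 3.44 and -1.76 in the 3 slides. With single arrays left out it ran from 0.74 (without Efnb1cKO 1) to 1.96 (without WT 1). An exact two-sided permutation test gave p = 0.312.

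Of 16 atrial genes, 15 had a higher mean in Efnb1cKO, but 1 (Nppa) was at the unadjusted limit and 0 passed. The median of 0.17 was 0.06 without Efnb1cKO 1 and -0.02 with Myl7 as a covariate. The latter tests nothing about the list, since Myl7 is itself a member. The atrial list mean ran from 8.59 to 10.38 in WT and from 8.88 to 11.21 in Efnb1cKO. Myl4, the other atrial light chain, differed by 1.1, and Sln, the atrial inhibitor of the calcium pump, by 1.36, both with an adjusted p of 1. Whether atrial tissue in the samples bears on the Nppa values was not tested.

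The calls were read against both measures. With Arntl minus Dbp per array as a covariate, 15 probes were called, and all 9 of the original calls were among them. With Myl7 as a covariate 6 probes were called, all 6 among the original 9, and Defa2, Pzp and 9330158H04Rik were not. Without the 3 arrays that stood apart 4 probes were called, those of Myh7, Ndnf and 1810058I24Rik. Leaving out Efnb1cKO 6 alone gave 20 calls, the original 9 among them, and added 11, among them Mylpf (0.92, adjusted p = 0.019), Amph, Nup205 (0.54, adjusted p = 0.031), the second 9330158H04Rik probe (0.64, adjusted p = 0.047) and the mitotic topoisomerase Top2a (-1.58, adjusted p = 0.031). None of these 11 was among the 4 calls without the 3 arrays. With array weights Mylpf (adjusted p = 0.045) and Nup205 (0.56, adjusted p = 0.045) were also called.

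Genotype differences were also read at both ages. Of the genes named here, the interaction of genotype and age passed the threshold for Amph and the called Myh7 probe, leaving aside Defa2, which was below background in 3 of the 4 groups. Over all probes 14 (0.0392%) passed. The plot of both ages sets them beside Ndnf, whose differences at P20 and P60 were 1.42 and 1.5 at one probe. For 9330158H04Rik the difference was 1.12 at P20 and 0.25 at P60, but the interaction of -0.88 missed the threshold (adjusted p = 1). Its probe was above background on 2 WT and 6 Efnb1cKO arrays at P20 and on 2 WT and 1 Efnb1cKO arrays at P60. These sizes are therefore not reliable. For Efnb1 the difference was -0.48 at P60 (SE 0.117, adjusted p = 0.065), with an interaction of -0.13 (adjusted p = 1).

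**Figure D5:**
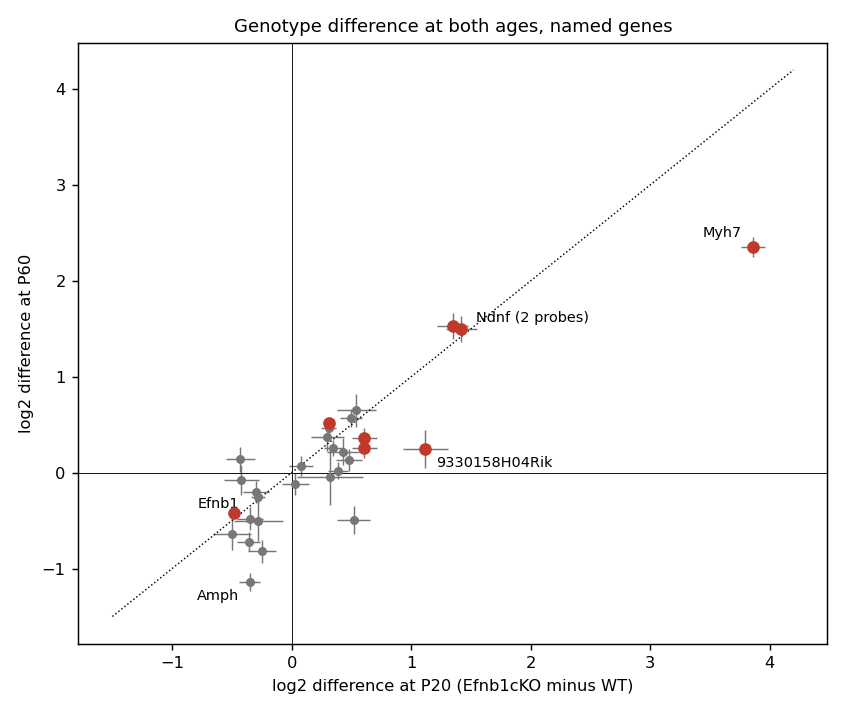
Difference between Efnb1cKO and WT at P20 (x axis) and at P60 (y axis), both log2, for Efnb1, Amph, the probes of the called genes other than Defa2 (called probes in red) and the 16 further genes, with the SE of each as bars and equal differences on the dotted line. The called Myh7 probe lies below the line at 3.86 and 2.35, and Ndnf close to it.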

How the data were processed

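Scanner files gave the intensity of 62976 spots per array. Per the file headers, spots were read with Agilent Feature Extraction 10.10.1.1 in 1 colour, and the deposited processed signal intensity is background-subtracted, with coordinates on mm9. The authors' deposited log2 values, of unstated scaling, were an alternative only. Processed signal was put on the log2 scale relative to the 75th percentile of its array. Control and outlier spots were left out and spots of a probe averaged. Probes well above background on at least 5 of 23 arrays were tested with limma 3.58.1 (R 4.3.3), 4 group means and 19 residual degrees of freedom, with Benjamini-Hochberg adjustment over 35718 probes. Limma and permutation tests were two-sided. Precision is limited by 6 arrays a group, each from another mouse.

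Genes carry the names printed on the array design. Of 20789 names, 16892 matched the RefSeq table of GRCm38.p6, which was used for names only. Lists were read through each gene's brightest probe and described without a set test. The arrays, genes and lists were chosen with earlier results of these data known. Named genes were Efnb1, Arntl, Dbp and Myl7, every gene with a called probe, the 8 largest positive and 8 largest negative differences among named genes with all 12 arrays above background and no overlap, and up to 2 members of lowest p per list. 1 of the genes so selected is not reported. Others named (Ephb4, Efnb2, Efnb3, Nppb, Chrm2, Sln, Myl4, Nr1d1, Top2a) and the chromosome 6 window were picked after values were seen. The main fit did not pair arrays by replicate number. Deviations of same-numbered arrays correlated at 0.031 to 0.387, and not every pair exceeded 0.1. The same-numbered Efnb1cKO array was the best match for WT 1, 2, 4 and 6, but not for WT 3 and 5. Whether the numbers mark pairs is therefore not settled. On simulated data with these arrays' spread, 75 of 100 probes changed by 0.5 and 91 of 100 changed by 1 were recovered. Its noise was independent between probes and its changed probes far outnumbered the calls made here. These shares are therefore no estimate of the power of this comparison. Alternatives covered background correction, scaling, filters, slide, row and replicate blocks, array weights, variance prior, arrays in the fit, covariates, probes per gene, the authors' values and each array left out. The removal of 3 arrays together and the joint covariates were added after the data were seen.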

Additional observations from a re-analysis of the deposited data

Results flagged for a closer look

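In groups of 6 arrays, 164 sets of values were searched for an array whose gap to the nearest other, over the group's range, exceeds Dixon's critical value. There were 14, where chance gives about 8, or 1 in 20. Sets of genes that vary together are not independent, so 14 cannot be judged against 8. The gap also cannot find arrays that lie together, such as WT 5 and WT 6 with low Dbp (12.51 and 12.23 at probe A_51_P180492). Of the 14, 10 were in Efnb1cKO 6. It was lowest for Dbp at both probes (12.52 against 14.44 for the next, and 12.38 against 14.26), Bdh1 (5.78 against 7.67) and Ldhb (16.84 against 17.09). It was highest for Arntl (7.62 against 6.05), Clock (10.50 against 9.98), Bub1 (4.91 against 2.16, which is below background), Cacna1c (13.04 against 12.74), Ccnd1 (10.71 against 10.51) and Fosl2 (10.07 against 9.80). In Efnb1cKO 1, Krt8 was highest at 6.76 (next 4.89) and Frk lowest at 3.83 (next 3.99). In WT 5, Ndnf was lowest at 5.82 (next 6.37, probe A_52_P956261), and in WT 3, AW011738 was highest at 6.23 (next 5.54).

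The genotype difference differed between P60 and P20, by the interaction in limma, for 3 named probes. On the log2 scale it was smaller at P60 for Myh7 at probe A_55_P2093232 (-1.5, adjusted p = 1.6e-05) and more negative for Amph (-0.79, adjusted p = 0.011). For Defa2 the fit gave 2.31 (adjusted p = 0.00016), but this is no measured size, since the probe was above background only on the 6 Efnb1cKO arrays of P60, and with normexp correction it was 0.45 (adjusted p = 0.50).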

How the results depend on the processing

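The main count of 9 called probes was 4 to 15 under the other settings and 5 to 20 with single arrays left out. It was 14 with array weights, 15 with Arntl minus Dbp as a covariate, 14 with Arntl minus Dbp and Myl7 together, and 4 without WT 5, WT 6 and Efnb1cKO 6. Leaving out Efnb1cKO 1 or Efnb1cKO 4 gave 5 calls each, and leaving out Efnb1cKO 6 gave 20. With the replicate number as a block 7 probes were called, 6 of them shared, and the authors' values gave 7, 6 of them shared. The called probes of Myh7, Ndnf and 1810058I24Rik passed under every alternative that tested them. Defa2, Pzp, 9330158H04Rik, Tbx15 and the chr2 region each lost their call under some. The Efnb1 difference of -0.35 missed the exact permutation threshold within slides (p = 0.0648) and with the replicate block (p = 0.0625, where the difference was again -0.35). With single arrays left out it ran from -0.41 to -0.26, with exact permutation p of 0.0195 to 0.0974, and WT 5 or WT 6 left out gave -0.26. Signs turned for uncalled probes of named genes. The uncalled Myh7 probe A_65_P07389 went to -0.02 with Arntl minus Dbp as a covariate, to -0.01 without the 3 arrays, and ran from -0.05 to 0.10 with single arrays left out. The adipocyte gene Retn went to -0.04 with Myl7 and -0.09 with both covariates, Car3, of the same list, to -0.01 with both, and Arntl at probe A_66_P127371 to 0.04 without the 3 arrays. The cause was not tested. Probes near background, such as Defa2, have no reliable level.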
